A study of Drosophila melanogaster with 2 samples.

Results

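The regions described here were the 562 autosomal summits of Adf1-eGFP binding that lay over 500 and at most 2000 bp from the nearest transcription start site (TSS) of a protein-coding gene. A summit is the base at which the peak caller placed the highest enrichment of a peak. Summits were taken from the conservative list called across both replicates. A TSS was the 5' end of any annotated transcript of a protein-coding gene. The 562 summits were 16.5% of the 3413 autosomal summits in a list of 4370 in all. Another 2040 autosomal summits (59.8%) were at most 500 bp from a TSS and 811 (23.8%) were over 2000 bp away. Within that list position alone chose them. The list itself holds only peaks that passed the authors' threshold on the irreproducible discovery rate, a measure of how alike peaks rank in both replicates.

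Chromatin came from whole Drosophila melanogaster embryos aged 0 to 24 h, of a transgenic strain carrying Adf1 fused to enhanced green fluorescent protein, and DNA fragments of 200 to 800 bp were sequenced after immunoprecipitation. The sample notes name an antibody against the green fluorescent tag, while the antibody field gives Adf1. The 2 biological replicates form 1 group, and no control library was analysed here, so no groups were compared and no p-value is given. Whole embryos of this age range mix all tissues and stages, and neither the copy number of the fusion gene nor the state of the native Adf1 gene is given in the labels.

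Adf1 is a transcription factor with a DNA-binding MADF domain, first described as an activator of Adh, the alcohol dehydrogenase gene, through its distal promoter. Known Adf1 sites are rich in GC-containing triplets. The sequence between a promoter and more distant DNA often holds enhancers, further promoters of the same gene and the early introns of long genes. In flies such intronic and upstream elements drive many developmental genes, and factors such as the GAGA factor bind there too.

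The windows below show the DNA under strong summits and differ in whether they hold an Adf1-type triplet, written GCNGCNGC, which reads the same in this spelling on both strands. Each runs 50 bp to either side of the summit on the plus strand of Release 6 (dm6), taken from the RefSeq genome, and overlaps no UTR. Capitals mark triplet matches. The first 5 are from the strongest such windows with a match on arms 2L, 3L and 3R.
mirr, chr3L:12692973-12693073: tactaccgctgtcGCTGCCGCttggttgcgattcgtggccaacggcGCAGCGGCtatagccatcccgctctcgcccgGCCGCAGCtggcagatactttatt
Ndf, chr2L:10004591-10004691: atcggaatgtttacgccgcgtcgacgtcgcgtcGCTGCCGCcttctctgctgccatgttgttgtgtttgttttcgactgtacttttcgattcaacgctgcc
CG5953, chr2L:16534397-16534497: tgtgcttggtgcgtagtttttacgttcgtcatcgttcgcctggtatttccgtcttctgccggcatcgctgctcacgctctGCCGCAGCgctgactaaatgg
Prps, chr3L:9692682-9692782: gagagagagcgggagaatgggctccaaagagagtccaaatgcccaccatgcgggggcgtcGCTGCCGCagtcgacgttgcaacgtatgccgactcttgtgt
CG3349, chr3L:14977641-14977741: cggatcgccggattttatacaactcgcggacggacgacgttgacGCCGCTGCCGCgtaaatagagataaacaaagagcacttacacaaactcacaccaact

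The next 3 windows, chosen in the same way, are the strongest on these arms with no triplet, so they hold no capitals. The Antp window carries CA repeats and was 56.4% G or C. The CG4496 window has a run of CG-containing triplets late in it, followed by A and T bases, and was 52.5% G or C. The CG11050 window was 20.8% G or C.
Antp, chr3R:7000898-7000998: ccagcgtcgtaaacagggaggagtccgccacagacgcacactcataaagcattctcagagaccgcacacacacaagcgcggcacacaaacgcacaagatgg
CG4496, chr2L:7188847-7188947: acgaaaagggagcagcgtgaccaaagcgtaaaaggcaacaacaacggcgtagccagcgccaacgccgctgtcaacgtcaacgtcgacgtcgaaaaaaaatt
CG11050, chr2L:6612662-6612762: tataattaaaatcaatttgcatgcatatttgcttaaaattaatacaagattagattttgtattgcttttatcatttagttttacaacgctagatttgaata

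Among 8-mers in at least 3% of the 562 windows, the one whose share was highest relative to other windows at the same distances from a TSS was CGACGTCG, which is its own reverse complement. It is 1 form of a wider pattern of CG-containing triplets, CGNCGNCG, which also reads the same on both strands. The 8-mer and the pattern were picked after the sequences had been seen. The 41-bp stretches below are centred on the 8-mer, in capitals, at the 6 strongest summits that hold it outside UTRs on arms 2L, 3L and 3R.
CG4496, chr2L:7188914-7188954: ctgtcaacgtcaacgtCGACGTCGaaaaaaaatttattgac
Ndf, chr2L:10004596-10004636: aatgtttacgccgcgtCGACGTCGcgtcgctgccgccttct
CG10947, chr2L:20400995-20401035: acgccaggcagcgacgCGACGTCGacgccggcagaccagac
bab1, chr3L:1102426-1102466: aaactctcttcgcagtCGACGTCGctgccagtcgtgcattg
CG4733, chr3R:19890044-19890084: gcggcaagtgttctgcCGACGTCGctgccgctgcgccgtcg
CycE, chr2L:15747657-15747697: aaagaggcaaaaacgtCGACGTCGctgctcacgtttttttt

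The triplet was present in 76 of the 562 windows (13.5%, 95% Wilson interval 10.9 to 16.6%). It was present in 14.6% of windows at summits at most 500 bp from a TSS, in 17.4% of those over 2000 bp away, and in 15.1% of all autosomal summit windows. As background, 4.92% of the 234748 consecutive autosomal windows of the same length centred 500 to 2000 bp from a TSS held it. The share at these summits was thus close to that of all summits and above that of the background windows. All intervals given cover counting error only.

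The CG-triplet pattern was present in 78 windows (13.9%, 11.3 to 17.0%), against 12.9% of summits at most 500 bp away, 16.4% of those over 2000 bp away and 13.9% of all autosomal summits. Of the background windows 2.12% held it. Both patterns occurred together in 28 windows and 1 or both in 126, so 436 of the 562 windows (77.6%) held neither. The median signal was 313.9 at summits with the CG-triplet pattern and 134.2 at those without it.

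Within 500 bp of the summit, matches to both patterns were most frequent in the bins next to it. The CG-triplet pattern was picked from the windows of 50 bp to either side, so its values in these bins are a description only. Match starts of the CG-triplet pattern lay in 8.36 and 8.01% of members in the 50-bp bins on either side of the summit, against 0.534 and 1.07% in the bins 450 to 500 bp away. For the Adf1-type triplet the same bins held 8.36 and 7.65%, against 2.67% in each outer bin. The 8-mer CGACGTCG was in 29 windows (5.16%, 3.62 to 7.31%). It was in 3.63% of windows at most 500 bp from a TSS, in 5.55% of those over 2000 bp away, and in 0.103% of background windows.

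**Figure D1:**
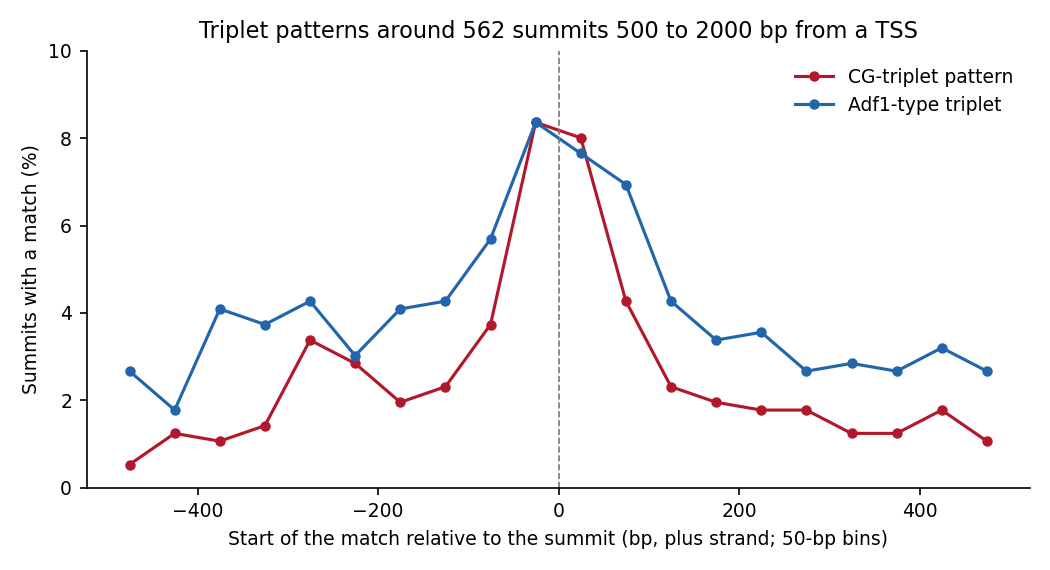
Share of the 562 summits with a match that starts in each 50-bp bin (y axis, %), by distance from the summit (x axis, bp), for the CG-triplet pattern (red) and the Adf1-type triplet (blue). Both lines are highest in the bins that flank the summit, at 7.65 to 8.36%.

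The CG-containing words were concentrated at the strongest summits. With the members divided into 4 parts by signal, the CG-triplet pattern was in 34.8% of the strongest part, then in 7.09, 10 and 3.57% of the parts below it. The 8-mer CGACGTCG was in 22 windows of the strongest part, then in 1, 6 and 0. Among the nearest genes of the 29 summits with that 8-mer were bab1, which encodes a BTB-domain factor, pros, which encodes a homeodomain factor of neural differentiation, and ttk, which encodes a zinc finger repressor, with signals of 819, 603 and 319. The Adf1-type triplet was in 24.1% of the strongest part and in 10.6, 11.4 and 7.86% of the others.

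Base composition moved with the patterns. The windows were a median of 48.0% G or C, against 43.6% in the background windows, and 72.3% of the strongest part but 28.6% of the weakest had 50% or more. Within the 253 windows of 50% G or C or more, the CG-triplet pattern was in 26.9%, against 5.26% of background windows of the same composition. The Adf1-type triplet was in 23.7% of those 253 windows, against 11.1% of the same background windows. Among the 185 windows below 40% G or C, 1 held the CG-triplet pattern (0.541%, 0.0955 to 2.998%) and 4 the Adf1-type triplet (2.16%, 0.844 to 5.43%), against 0.253 and 0.880% of background windows of the same composition. The part of base composition in the signal was not tested.

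Words bound by other factors were counted in the same windows, on both strands. GAGAG, the core of the GAGA factor site, was in 144 windows (25.6%, 22.2 to 29.4%), against 19.6% of summits at most 500 bp away, 21.9% of those over 2000 bp away and 11.2% of background windows. GTGTGT, a word bound by the zinc finger protein Combgap, was in 16.7% (13.9 to 20.04%), against 10.3, 12.3 and 5.56% of the same 3 sets. CACACACA was in 8.36% (6.35 to 10.9%), against 4.66, 6.17 and 1.53%. CACACACA contains the reverse complement of GTGTGT, so each window with the longer word also counts for the shorter one.

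Words of housekeeping promoters were rare here. TATCGATA, the site of DREF, was in 1 of the 562 windows (0.178%, 0.0314 to 1.0009%), against 57 of the 2040 windows at most 500 bp from a TSS (2.79%, 2.16 to 3.603%), 1 of the 811 windows over 2000 bp away, and 0.175% of background windows. GGTCACAC, the core of core-promoter motif 1, was in 2 windows (0.356%, 0.0976 to 1.29%), against 1.81% of windows at most 500 bp from a TSS. It was in 0 of the 811 windows over 2000 bp away and in 0.135% of background windows. The E-box CANNTG was in 38.8% of members and 40.5% of background windows, and GCCAT, the core of the Pleiohomeotic site, in 17.6 and 20.1%. Over all autosomal summits the E-box was in 37.2% and GCCAT in 16.1%. A match describes the letters only and is no measure of binding.

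The other 8 words searched were counted in the same way. GGGCGG, a GC box, was in 6.05% of members and 3.76% of background windows, TGAGTG, a Zeste word, in 6.41 and 4.47%, and AGATAA, bound by Serpent and its relatives, in 6.76 and 5.68%. TATAAA was in 11.2% of members and 11.1% of background windows. TAATTA, a homeodomain word, was in 4.45 and 6.01%, CAGGTA, the word of the early activator Zelda, in 1.78 and 2.59%, TTTATG, a Caudal word, in 7.30 and 9.89%, and GGAAAA, a Dorsal core, in 9.07 and 11.03%. In the same order, the shares over all autosomal summits were 5.27, 6.01, 5.22, 12.5, 5.13, 1.93, 7.74 and 10.5%.

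The mean density of summits was higher here than over all sequence beyond 2000 bp, and far below that within 500 bp of a TSS. The 562 summits lay in 23.7 Mb of autosomal sequence, a density of 23.7 per Mb. Density was 160.1 per Mb within 500 bp of a TSS and 10.98 per Mb beyond 2000 bp. In steps of 250 bp from 500 bp outward it was 28.1, 27.7, 22.95, 21.7, 18.3 and 19.4 per Mb, and 20.1 in the next step. Of the members, 272 (48.4%) were at 500 to 1000 bp, 172 (30.6%) at 1000 to 1500 bp and 118 (21.0%) at 1500 to 2000 bp.

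**Figure D2:**
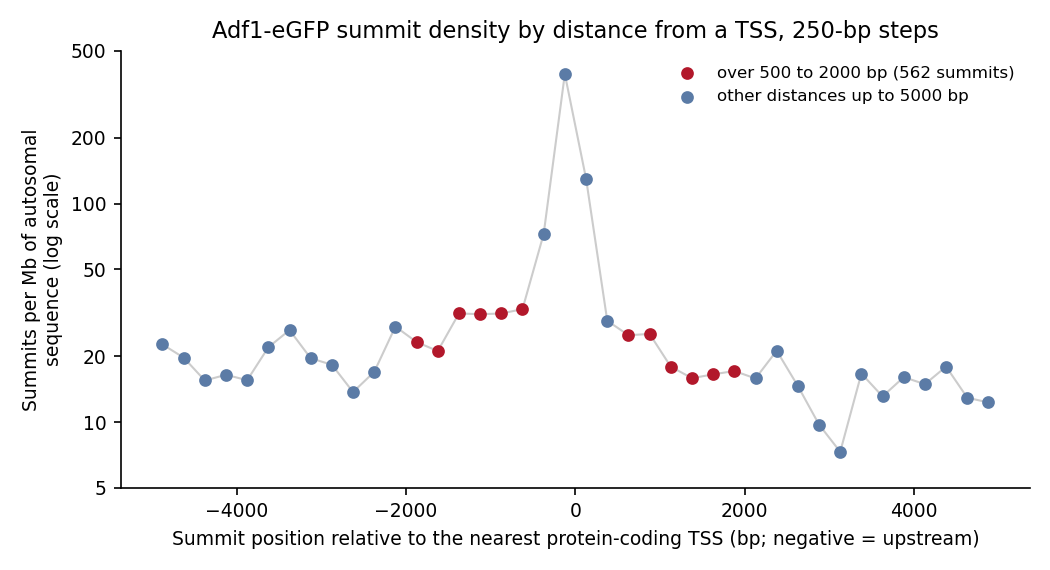
Autosomal summits per Mb (y axis, log scale) in 250-bp steps by position from the nearest TSS (x axis, bp, upstream negative), with the 562 members in red and other distances in blue. The red points lie between 15.9 and 32.9 per Mb, under the 391 and 130 per Mb of the steps that flank the TSS.

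The limits of 500 and 2000 bp cut a continuous range. The members nearest the lower limit were at LpR1, a lipophorin receptor gene (501 bp, signal 212), CycE, the cyclin E gene (503 bp, 632), and KP78b (505 bp, 303). Just below it lay summits at CG13894 (498 bp, 724), CG5151 (499 bp, 73.4) and FBgn0010877 (499 bp, 106). At the upper limit the members were at laza (1988 bp, 361), tara (1991 bp, 1386) and crol (1998 bp, 279), with CG33969 (2002 bp, 137), cnc (2003 bp, 91.9) and fru (2008 bp, 380.4) just beyond. Arms 2L, 2R, 3L and 3R held 130, 136, 145 and 151 members and chromosome 4 held 0.

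Members lay on both sides of the start site. Of the 562, 295 (52.5%, 48.4 to 56.6%) were downstream of the nearest TSS and 267 upstream. Downstream sequence made up 61.6% of the bases at these distances, so density was 20.2 per Mb downstream and 29.3 per Mb upstream. The downstream share was 28.1% (26.2 to 30.1%) for summits at most 500 bp from a TSS and 58.7% (55.3 to 62.0%) for those over 2000 bp away.

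Most members were intronic. Summits in introns or non-coding exons of protein-coding genes numbered 370 (65.8%, 61.8 to 69.6%), while such sequence made up 35.1% of the bases at these distances. Coding sequence held 20 (3.56%, 2.32 to 5.43%) in 32.2% of the bases, and 3' UTRs held 7 (1.25%) in 9.22%. Sequence outside protein-coding genes held 134 (23.8%) in 21.2% of the bases, and 5' UTRs held 31 (5.52%) in 2.28%. Per Mb this came to 44.4 in introns, 57.3 in 5' UTRs, 26.6 outside genes, 3.20 in 3' UTRs and 2.62 in coding sequence. Summits over 2000 bp away were also mostly intronic, with 59.4% in 46.9% of the bases, and coding sequence held 2.22% in 9.47%. At most 500 bp away, introns held 24.8% of summits in 23.9% of the bases, and coding sequence 1.67% in 24.8%.

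**Figure D3:**
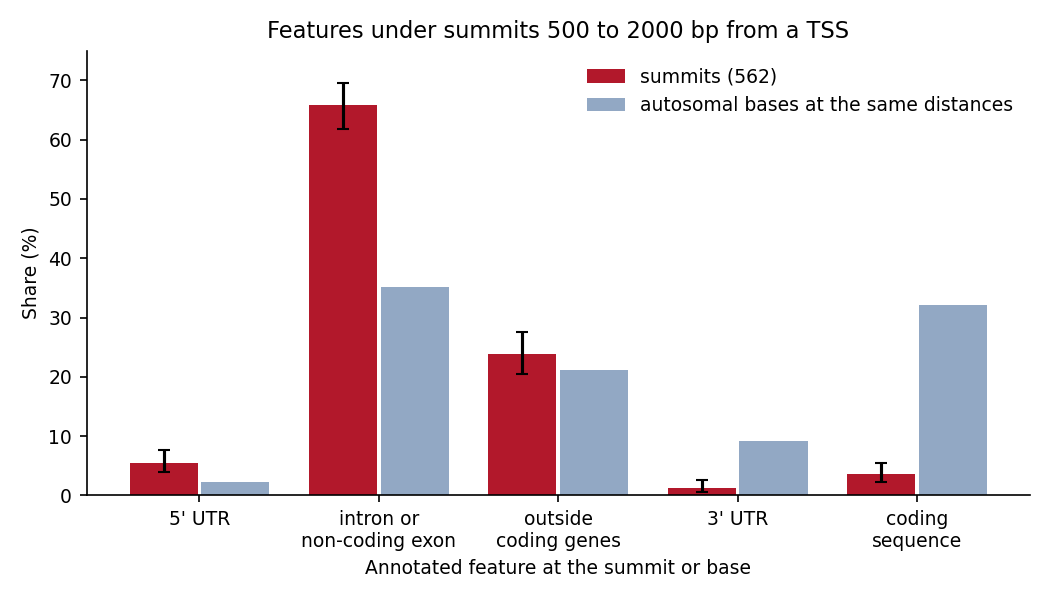
Share of the 562 summits (red, with 95% Wilson intervals) and of autosomal bases at the same distances (blue) in each annotated feature (y axis, %). Introns or non-coding exons hold 65.8% of summits and 35.1% of bases, and coding sequence 3.56% of summits and 32.2% of bases.

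Downstream members lay mainly in the intron that follows the start site. Of the 295 downstream summits, 228 (77.3%, 72.2 to 81.7%) were intronic, and 217 of these (95.2%, 91.6 to 97.3%) were in the first intron of a transcript that begins at the nearest TSS. Of intronic bases on the same side and at the same distances, 69.2% were in such an intron. Upstream, 121 of 267 summits were outside protein-coding genes and 142 (53.2%) in introns. Of these 142, 115 were inside the nearest gene itself, upstream of 1 of its internal starts.

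The nearest genes were long and had several starts. The 562 summits had 426 nearest genes, which were 3.63% of the 11749 autosomal protein-coding genes. Their median length was 11764.5 bp, against 2028 bp for the other genes, and they had a mean of 2.41 TSSs, against 1.35. The median length of sequence nearest to their starts and 500 to 2000 bp away was 3000 bp, against 1551 bp. The nearest start was a rule of naming, since no link to a gene's activity was measured, and 16 summits had a tie for nearest gene.

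Many of these genes were bound at a promoter as well. A companion summit at most 500 bp from any TSS of the same nearest gene was present for 342 members (60.9%, 56.8 to 64.8%). Counted by gene, 239 of the 426 nearest genes (56.1%) had such a promoter summit, against 18.7% of all autosomal genes. Seen from the other side, 10.9% of the 2195 genes with a promoter summit were the nearest gene of a member, and 1.96% of the 9554 without one. A promoter summit could lie at any start, and the nearest genes had a mean of 2.41 TSSs, against 1.39 for all autosomal genes. The part of gene length and number of starts in these shares was not tested. The nearest companion was a median of 1337.5 bp away, and 15 members shared its peak interval.

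Most members were weaker than their strongest companion. The member exceeded its strongest companion in 119 of 342 cases (34.8%, 29.9 to 39.99%). Median signal was 154.0 for the members with a companion and 268.1 for their strongest companions. Each member was set against the highest of all companions of its gene, a choice that favours the companion. The same companion counts once for each member of its gene, as at fru and tou with 6 members each. These values are thus a description only. Members without a companion had a median of 132.7. The CG-triplet pattern was in 17.3% of members with a companion (13.6 to 21.6%) and 8.64% of those without (5.60 to 13.1%), and GAGAG in 29.5 and 19.5%. GCCAT went the other way, with 13.2% of members with a companion (9.98 to 17.2%) and 24.5% of those without (19.3 to 30.6%).

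Signal is a value of the authors' peak caller on an unstated scale, used here to rank and describe peaks within a list. Signals of different lists are set side by side as values only, since their scales may differ. In whole embryos, strong binding in few cells and weak binding in many cannot be told apart. Over the 562 members its median was 145.5, with quartiles of 102.5 and 266.8 and a range of 15.1 to 8099.6. Medians were 149.5 for summits at most 500 bp from a TSS and 147.8 for those over 2000 bp away. These medians were close to each other. Of the 100 strongest autosomal summits 11 were members (11%, 6.25 to 18.6%), an interval that includes their 16.5% share of all autosomal summits.

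The strongest member lay inside Adf1 itself (FBgn0284249), 869 bp downstream of a start in intronic or non-coding exonic sequence, with signals of 3596 in replicate 1 and 4301 in replicate 2 and of 8099.6 in the list called across both. Its interval, 2331 bp long, was the widest of all members. The flies carry an inserted Adf1 fusion, and the part of extra copies of this locus in its signal was not tested. Leaving this summit out moved the median of the members to 145.3.

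The next strongest members included several at genes of transcription and chromatin. The summit at not, the gene of a deubiquitinase that acts on histone H2B, lay in a 5' UTR 614 bp downstream of a start and had 799.6 in replicate 1, 2095 in replicate 2 and 2921 in the list called across both. At the Hox gene Antp, 1720 bp upstream, the values were 1190.3, 1663 and 2852. At cnc, which encodes a bZIP factor of head development and stress responses, 519 bp upstream, they were 892, 1372 and 2238. At tou, a gene of chromatin remodelling, 968 bp upstream, they were 497, 1178 and 1729.96. In all 4 cases replicate 2 gave the higher value.

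Other strong members were at mirr, an Iroquois homeobox gene (616 bp upstream, signal 1635), tara, a gene of cell-cycle and sleep control (1991 bp downstream, 1386), and Eip75B, an ecdysone-induced nuclear receptor gene (1052 bp upstream, 1165). Pdp1, which encodes a bZIP factor of the circadian clock, had a summit 625 bp downstream with a signal of 1113. Ndf, the gene of a nucleosome destabilizing factor, had one 809 bp downstream with 1109. HmgD, which encodes an HMG-box chromatin protein, had one 1039 bp upstream with 1096. Among the 25 strongest it had the largest ratio between replicates, with 178 in replicate 1 and 904 in replicate 2.

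Signalling and effector genes were also among the 25 strongest. The summit at mam, the gene of the Notch coactivator Mastermind, was 1436 bp upstream with a signal of 1052, and the one at Dad, which encodes the inhibitory Smad of Dpp signalling, was 1586 bp downstream with 964. At rt, which encodes a protein O-mannosyltransferase, the summit lay in coding sequence 759 bp downstream, with 897 in replicate 1, 918 in replicate 2 and 1798.5 in the list called across both. At mAChR-A, a muscarinic acetylcholine receptor gene, the summit was 669 bp downstream with 1262, and at DCP2, the mRNA decapping enzyme gene, 880 bp downstream in coding sequence with 1228. At inaD, which encodes a scaffold of phototransduction, and at Atpalpha, the sodium pump alpha subunit gene, it was 1476 and 636 bp upstream with 1142 and 1083.5. Further summits were at CG4496 (2388), CG11050 (2270.3), CG42637 (1132), CG10947 (918) and, at 1249 and 927, at CG5953.

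Of the 25 strongest members, 14 were upstream and 11 downstream of the nearest TSS. By feature, 15 were in introns, 5 outside genes, 3 in 5' UTRs and 2 in coding sequence. A companion was present for 21, and the member was the stronger in 16 of those 21. All 25 had a summit in each replicate's own thresholded list. The 25 were picked for high signal, so this count and the 16 of 21 follow in part from that choice.

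**Figure D4:**
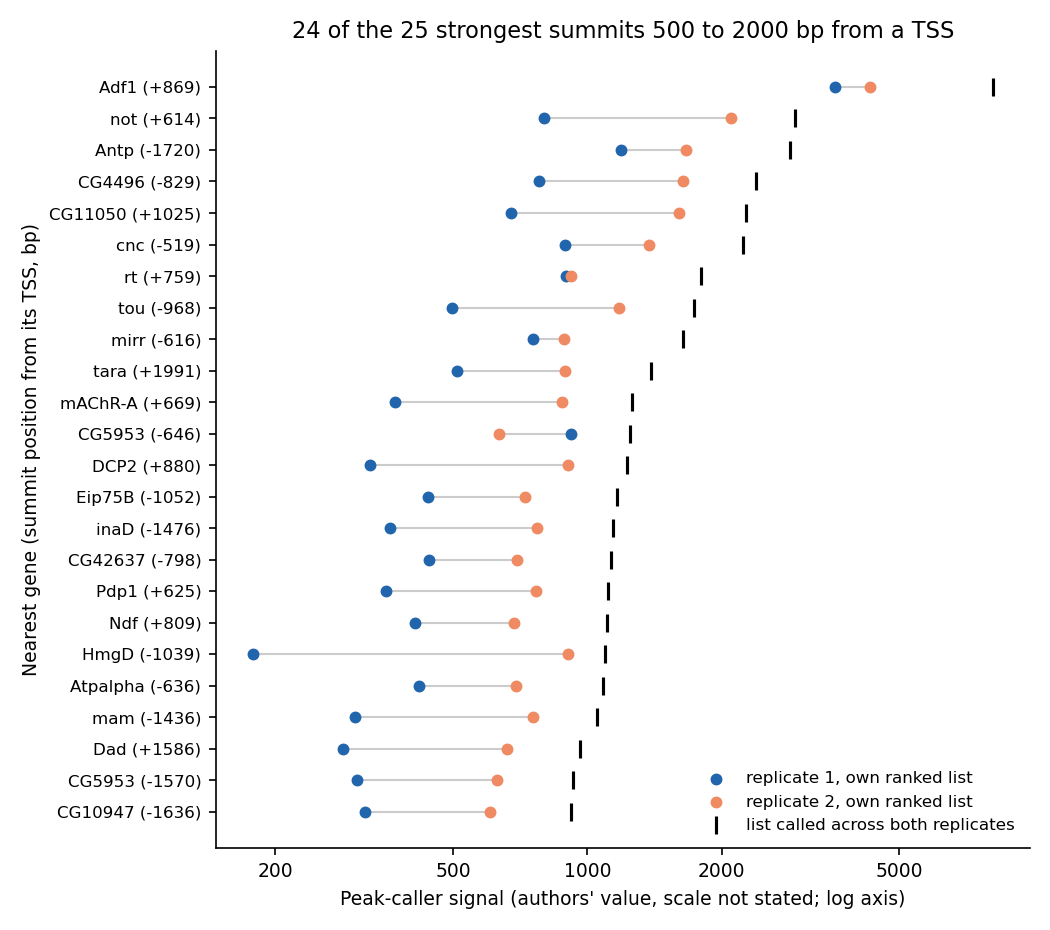
Signal (x axis, log scale, authors' units) of 24 of the 25 strongest members, named by nearest gene with the position from its TSS in bp (y axis), in replicate 1 (blue), replicate 2 (orange) and the list called across both (black). Replicate 2 is higher at all those plotted except the summit of CG5953 at 646 bp, where replicate 1 gives 919 and replicate 2 gives 633. Replicate 1's matched summit lay 144 bp from this member, which has a companion 200 bp away, so the 919 need not belong to it.

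The weakest members could not all be tied to a summit of each replicate. The 3 lowest signals were 17.7 at Akt, a protein kinase gene of insulin signalling, 16.3 at bab2 and 15.1 at CG9837. Replicate 1's nearest summits to these lay 208 to 210 bp away, so its values of 236, 151 and 29.3 need not belong to them. In 71 members that shared an interval with another summit, the nearest such summit was a median of 203 bp away and at least 199 bp.

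Genes were then grouped by role, each list being described beside the 3.63% of autosomal genes and 23.7 members per Mb over all sequence at these distances. The lists were chosen with earlier results of these data known. Their shares and intervals, here and below, are therefore a description and not independent of the data. Of 19 autosomal hormone-response and zinc finger regulator genes, 9 (47.4%, 27.3 to 68.3%) were the nearest gene of a member. Their 13 members came to 127.9 per Mb of sequence at these distances and all 13 had a companion. Eip75B led, followed by Hr38, a nuclear receptor gene (1581 bp upstream, signal 713), ttk (1255 bp upstream, 319) and crol, a zinc finger gene of ecdysone response (855 bp downstream, 299.6).

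Of 77 developmental transcription factor genes, 15 (19.5%, 12.2 to 29.7%) had a member. They had 22 members, 72.4 per Mb, of which 21 had a companion. After Antp and mirr came bab1, a BTB-domain factor gene (1334 bp upstream, 819), and pros (530 bp upstream, 603). At pros the companion had a higher signal than the member, 603 at the member and 1260.4 at the companion.

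Of 46 genes for signalling ligands, receptors and inhibitors, 14 (30.4%, 19.1 to 44.8%) had a member. Their 23 members came to 146.4 per Mb, and 11 of the 23 had a companion. The inhibitors Dad and sty led, sty encoding Sprouty, an antagonist of receptor tyrosine kinase signalling, with members 677 bp downstream (716) and 612 bp upstream (432). The strongest member at Mad, the Smad that transduces Dpp signals, was 730 bp downstream with a signal of 469.7 and no companion.

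Of 29 Polycomb and trithorax group genes, 5 (17.2%, 7.60 to 34.5%) had a member. Their 10 members came to 140.1 per Mb, and each had a companion. Trl, the gene of the GAGA factor, had members 1530 bp upstream (785) and 854 bp downstream (401) of its starts. The one at the chromodomain remodeller gene kis lay 1587 bp downstream (262), and the one at the BTB factor gene psq 1053 bp downstream (161).

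Of 21 RNA-binding and translation control genes, 7 (33.3%, 17.2 to 54.6%) had a member, at 62.6 per Mb. The strongest were at mub, a KH-domain gene (279), at brat, a translational repressor gene (249.9 and 212), and at Rbp6 (199). Of 26 cytoskeleton and muscle genes 4 had a member, at 40.4 per Mb, the strongest at Msp300, a nesprin gene (297), at CAP (175 and 130.3), and at rhea, the talin gene (153).

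Neural effector genes came next. Of 32 axon guidance, adhesion and synapse genes, 2 (6.25%, 1.73 to 20.1%) had a member, at 27.7 per Mb. They were the adhesion gene Fas1 (337 and 83.1) and the netrin receptor gene unc-5 (112). Of 28 ion channel and transmitter genes, 2 (7.14%) had one, mAChR-A and the potassium channel gene Irk1 (110.3), at 20.1 per Mb.

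Of the 65 autosomal cytosolic ribosomal protein genes 0 had a member, which allows a share of up to 4.62%. These genes have little sequence at such distances, 0.0817 Mb in all, in which the mean density would give 1.94 members. Of 22 core metabolism genes 2 had a member, Gdh, the glutamate dehydrogenase gene (92.1), and Adh. The Adh summit lay 1790 bp upstream with a signal of 152, 57.5 in replicate 1 and 95.2 in replicate 2, and the companion at the gene had 586.

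Several genes carried a string of members. A single member was found at 328 genes, 2 or more at 98 and 4 or more at 10. Summits that share an interval count separately here, and so do summits in intervals that overlap, as at ex. For the 71 members that share an interval, the nearest summit in it was a median of 203 bp away. A matched replicate summit was shared with another listed summit by 80 members, so some of these strings may be single peaks that were split. The genes with most were fru, which encodes BTB zinc finger factors of sex-specific behaviour, and tou, each with 6 members and 4 promoter summits. Each member of both genes lay in introns or non-coding exons. At fru the members spanned chr3R:18436842-18508711, with signals of 400.3, 61.0, 166, 156, 457 and 106 along the arm. At tou, on chromosome arm 2R from 11593049 to 11615432, they were 1729.96, 206, 623, 703, 53.5 and 379. The summits of 400.3 and 61.0 at fru shared an interval. At tou those of 1729.96 and 206 did so, as did those of 703 and 53.5, which also matched the same replicate 1 summit.

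A further 8 genes had 4 members each. They were mam, pros, HmgZ, bol, sty, dve, CG5953 and fok. Of these HmgZ encodes an HMG-box chromatin protein, bol an RNA-binding protein of sperm development and dve a homeodomain factor. At mam the 4 signals were 340.0, 1051.65, 361 and 91.8 along the arm, at pros 603, 320, 53.1 and 97.1, and at HmgZ 638, 72.1, 339.9 and 105. At bol they were 214, 149, 273 and 258, and at sty 716, 432, 157 and 175. At dve they were 97.8, 164, 311 and 111, at CG5953 273, 72.2, 1249 and 927, and at fok 89.6, 92.2, 479.8 and 54.1. Shared intervals held 1051.65 and 361 at mam, 320 and 53.1 at pros, and 638 and 72.1 at HmgZ. The same was true of 214 and 149 at bol, and of 432 and 157 at sty. Overlapping intervals held 311 and 111 at dve, and 479.8 and 54.1 at fok. The gene sty was the only 1 of these 10 with no promoter summit.

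Presence in each replicate's own thresholded list was measured as a summit within 250 bp. Of the 562 members, 384 (68.3%, 64.4 to 72.0%) had one in replicate 1's list, against 68.2% of all autosomal summits. In replicate 2's list 519 had one (92.3%, 89.9 to 94.3%), against 91.3% of all autosomal summits. Both lists held 367 (65.3%) and neither held 26 (4.63%). These shares were near those of all summits. The lists differed in length, replicate 1's holding 2431 autosomal summits and replicate 2's 4802, and the sequencing depth behind them is unknown, since the files used hold no read counts.

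Presence followed signal. From the strongest to the weakest of 4 parts, 99.3, 83.7, 54.3 and 35.7% were in replicate 1's list and 100, 98.6, 90 and 80.7% in replicate 2's. The signal was close to the sum of both replicates' signals, so this order follows in part from how the members were divided. In the longer ranked lists 98.9 and 99.3% had a summit within 250 bp. For the 552 members matched in both ranked lists the median signal was 58.0 in replicate 1 and 98.5 in replicate 2, the ratio of replicate 2 to replicate 1 had a median of 1.69, and 495 were higher in replicate 2. Across those members the Spearman correlation was 0.68 and Pearson's r on log2 signal 0.77, a description over summits that share libraries and were selected for like ranks.

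**Figure D5:**
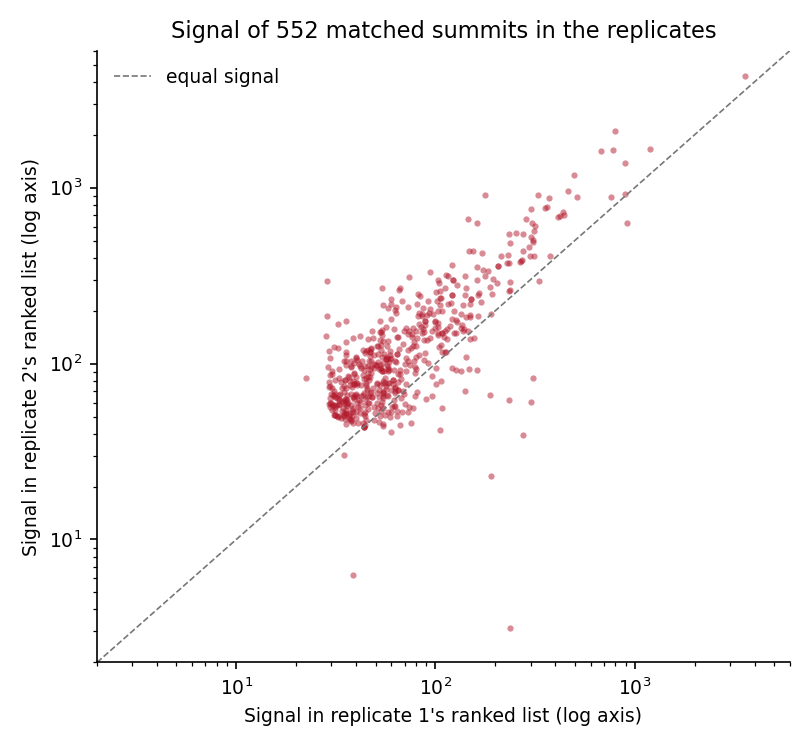
Signal of the 552 members matched within 250 bp in replicate 1's (x axis) and replicate 2's (y axis) ranked lists, both on log axes in the authors' units, with a dashed line at equal signal. Most points, 495 of 552, lie above the line, and the highest point on both axes is the summit inside Adf1.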

How the data were processed

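Adf1-eGFP ChIP-seq peak lists from 2 biological replicates were used, as deposited on Release 6 (dm6). The authors made them from alignments and a control file, per the deposited file lists. The sources used here do not name the aligner or the peak caller. The score of each peak is the authors' scaled irreproducible discovery rate (IDR), up to 1000. Each peak's signal is a value from the authors' caller, deposited without a stated scale. The deposited −log10 values were not used. In the series' ranked lists, 16 per-sample columns carried no sample name and were not used. Counts and depth are unknown.

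TSSs and features came from the Ensembl annotation of BDGP6.54, release 115 (13968 protein-coding genes, 19275 distinct TSSs), sequence from the RefSeq Release 6 genome. Where features overlapped, a 5' UTR came before a 3' UTR, then coding sequence, then introns with non-coding exons. A member was matched to the nearest summit within 250 bp in a replicate's list, so 80 members share a match with another summit. Gene lists (438 symbols matched, 11 not), 16 motifs and windows of 50 bp to either side of a summit gave shares with 95% Wilson intervals. No test was made. The upper limit beside a count of 0 is 3 genes of the total.

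Named were the nearest genes of the 25 strongest members (1 is not reported here), of up to 4 per list, of the 3 summits on each side of each limit, of the 3 weakest, and the genes with most members, where ties made 10. Members and lists were chosen with earlier results of these data known, and lists came from general knowledge. No sequence was printed for 2R. The work used Matplotlib 3.10.9, SciPy 1.17.1, NumPy 2.4.6 and Python 3.11.15. The counting steps were tested on simulated data.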

Additional observations from a re-analysis of the deposited data

Results flagged for a closer look

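Some strong peaks at these distances were outside the list used. The ranked list called across both replicates held 5974 autosomal summits 500 to 2000 bp from a TSS, of which 602 had a score at or above 830, the lowest in the thresholded list. Of these, 40 were not in the thresholded list analysed here, and 0 of the 40 overlapped one of its intervals. Their median signal was 250.8. The strongest, named after their values were seen, were at spen (2035 and 1185), cbt (1739.98), Lk6 (919) and Syx1A (892). Across all autosomal distances, 159 of 3572 such summits were not in it. The cause was not tested.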

How the results depend on the processing

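Of 72 alternatives, 48 stayed within the main interval, or within 1.5 times the main count. With the optimal list the median signal was 121.0 and the shares in replicate 1's and replicate 2's own lists 54.0 and 88.0%. In the stronger part of the list by signal 275 members were left, with a median signal of 269.5, the triplet in 17.8% and 93.1 and 99.3% in the replicates' lists. At 500 to 1000 bp there were 272 members, 56.6% with a companion and 72.4% in replicate 1's list, and at 1000 to 2000 bp 290, 64.8% with a companion. Leaving out replicate 1 or replicate 2, by using the other's own list, gave median signals of 70.3 to 75.8, on the scale of 1 library, and 50.6 to 68.0% with a companion, the lower value in each case without replicate 2. The count was then 405 to 832. The triplet was in 9.07% of windows of 25 bp and 23.0% of windows of 100 bp to either side. With companions within 200 bp the share was 49.8%. A match within 100 bp gave 60.1 and 87.7% in the replicates' lists, and the ranked lists 98.9 and 99.3%. Of 3 alternatives added after the data were seen, returning the omitted peaks gave 602 members. Why these values moved was not tested, beyond the smaller or longer lists used. No paired analysis was possible because the series has 1 group. Depth is unknown, so absence from replicate 1's list and shallower sequencing of that replicate cannot be told apart.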

Other observations

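Some members lay within 500 bp of the start of a non-coding gene. They were 28 of the 562 (4.98%, 3.47 to 7.11%), while 3.46% of the bases at these distances were as near to one, just below that interval. Of the 811 summits over 2000 bp from a coding TSS 94 were (11.6%, 9.57 to 14.0%), against 2.19% of bases. The Antp member was 456 bp from the start of lncRNA:CR45899, the CG5953 member with a signal of 927 was 41 bp from lncRNA:CR45354, and a member at CG3349 (806) was 60 bp from lncRNA:marge. Others were 185 bp from snRNA:7SKa (273), 69 bp from the snoRNA host gene Uhg4 (255) and 440 bp from mir-275 (159). These genes were named after their values were seen.

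Members with the most frequent interval width had a lower median signal than the others. Their highest signal was 221.3, at CG15629, while other widths also held weak members, such as Akt at 17.7. A width of exactly 510 bp was found for 246 members, with a median signal of 105.4, the CG-triplet pattern in 5.28% and 37.8% in replicate 1's own list. The 240 narrower intervals had a median of 212.9 and the 76 wider ones 572.6. These 316 together had a median of 240.6, the pattern in 20.6% and 92.1% in that list. How the authors' caller sets the width is not given in the sources used here.

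Members were also divided by base composition. The 185 members below 40% G or C had a median signal of 127.7, against 205.8 for the 253 with 50% or more. Of the 185, 75.7% were intronic, 50.8% had a companion and 63.8% were in replicate 1's own list. Of the 253, 57.7% were intronic, 68.4% had a companion and 75.5% were in that list.

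For 17 members the signal in the list called across both replicates was below both matched replicate signals, and 16 of these shared a matched summit with another listed summit. Over the 474 members with no shared match, the signal was a median of 0.993 of the sum of both replicates' signals.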
